A study of Mus musculus with 4 samples.

Results

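Granzymes, perforin and the proteins that pack and release them make up the lytic granule of cytotoxic lymphocytes, and 8 genes of this system were read across 4 sorted populations of mouse CD4+ T cells. The genes were Gzma, Gzmb, Gzmk, Gzmm, Prf1, Nkg7, Ctsw and Srgn, 8 of the 18193 genes on the array that have a probe set assigned to exactly 1 gene. The platform annotation assigned 9 probe sets to them, 2 for Prf1 and 1 for each other gene, and 0 of the 9 carry the suffix that marks probes shared between transcripts of different genes. Of the 8 genes, 7 had a probe set that reached the filter intensity of 32.46 in at least 1 array, the 60th percentile of all values, and 6 reached it in all 4 arrays. Gzmm did not reach it, and Gzmk reached it in 3 arrays.

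The cells came from male mice of a B6/129 F2 cross, 5 to 8 weeks old, in which GFP had been knocked into Foxp3, the gene of the transcription factor that defines regulatory T (Treg) cells, so every population carries that allele. Spleen and lymph node cells of 25 mice were combined, cells bearing DX5, NK1.1, CD11b, B220 or CD8 were depleted, and CD4+ cells were sorted by GFP and by CD25, a chain of the receptor for IL-2. The Foxp3+ pair is CD25hi Foxp3+ and CD25lo Foxp3+, the Foxp3- pair is CD25+ Foxp3- and CD25- Foxp3-, no treatment is named for any of them, and each was hybridised to 1 Affymetrix Mouse Genome 430 2.0 array. With 1 array for each population there is no replicate spread, and the comparisons are differences in size with no test. Values are array intensities on a linear scale, which can be compared between arrays for 1 probe set but not between genes. Sums over a marker list are led by its brightest probe sets and serve as a description only.

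A cytotoxic lymphocyte kills by releasing these granules against its target. Perforin forms pores in the target membrane, through which granzymes, a family of serine proteases, enter and cleave proteins that keep the target alive. Granzymes and perforin are held on the proteoglycan serglycin inside the granule until release. The system is best known from CD8 T cells and natural killer (NK) cells, and granzyme B has also been described in Treg cells.

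The array medians lay between 15.03 and 15.63, and between 39.7% and 40.3% of probe sets reached the filter. The sort gene Foxp3 read 1307.9 and 1116.9 in the CD25hi and CD25lo Foxp3+ arrays and 16.76 and 17.57 in the CD25+ and CD25- Foxp3- arrays. Cd4 lay between 2434.0 and 2948.3 and the T cell receptor chain gene Cd3d between 6179.2 and 9945.9. The number of arrays limits the precision of every value below.

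Promoter sequence before the start site is shown for Gzmb, which was high in both Foxp3+ populations, and for Gzma, Gzmk and Nkg7, which were low in both. The RefSeq table (GRCm38.p6) held 9 promoters for 7 of the 8 genes. Each line gives the 250 bases before the annotated start, 5′ to 3′ on the strand of the gene, and capitals mark every match to a searched motif. Gzma and Gzmk are neighbours on chromosome 13. Gzmb lies beside Gzmc, Gzmf and Gzmn on chromosome 14, and Nkg7 is on chromosome 7.
Gzmb (chr14:56262335-56262584, minus strand): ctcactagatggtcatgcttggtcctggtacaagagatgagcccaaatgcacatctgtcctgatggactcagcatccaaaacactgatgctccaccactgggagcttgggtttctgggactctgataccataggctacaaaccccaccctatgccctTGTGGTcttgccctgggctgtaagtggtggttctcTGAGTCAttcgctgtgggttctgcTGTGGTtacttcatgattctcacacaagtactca
Gzma (chr13:113100982-113101231, minus strand): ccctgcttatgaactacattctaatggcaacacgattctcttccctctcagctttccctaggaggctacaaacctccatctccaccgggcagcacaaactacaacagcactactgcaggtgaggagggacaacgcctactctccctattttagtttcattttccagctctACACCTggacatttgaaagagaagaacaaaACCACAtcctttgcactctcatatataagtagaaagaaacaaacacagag
Gzmk (chr13:113180966-113181215, minus strand): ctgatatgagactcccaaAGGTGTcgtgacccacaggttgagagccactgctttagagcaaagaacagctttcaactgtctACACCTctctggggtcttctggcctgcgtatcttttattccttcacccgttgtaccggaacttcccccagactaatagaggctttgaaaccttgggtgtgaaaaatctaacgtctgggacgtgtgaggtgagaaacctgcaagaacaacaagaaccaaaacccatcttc
Nkg7 (chr7:43436888-43437137, plus strand): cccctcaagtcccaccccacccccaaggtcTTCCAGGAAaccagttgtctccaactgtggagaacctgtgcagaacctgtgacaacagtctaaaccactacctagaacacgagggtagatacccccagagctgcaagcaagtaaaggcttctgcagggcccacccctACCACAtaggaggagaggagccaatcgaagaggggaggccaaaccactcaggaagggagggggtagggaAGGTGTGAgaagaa

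The motifs searched on both strands were TGTGGT for Runx factors, AGGTGT as a T-box core, the longer AGGTGTGA that contains this core, TTCNNNGAA for STAT factors and TGANTCA for AP-1, and distances run from the first printed base of a match to the start. The Gzmb promoter held TGTGGT at 93 and at 34 bases before the start, TGANTCA at 58 bases, and neither T-box motif. The Gzma promoter held the T-box core at 80 bases and TGTGGT at 50 bases before the start, both on the opposite strand. Gzmk held the T-box core at 232 bases and, on the opposite strand, at 169 bases, and none of the other motifs. In Nkg7 the longer T-box motif lay 14 bases before the start, TGTGGT at 83 bases on the opposite strand and TTCNNNGAA at 220 bases. Over all 32851 promoters of the table, 14.0% held TGTGGT, 11.8% the T-box core, 1.12% the longer T-box motif, 7.02% TTCNNNGAA and 6.75% TGANTCA in the same 250 bases. A match describes the letters only, and no binding was measured.

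Gzmb encodes granzyme B, which cleaves after aspartate and activates caspases in the target. Its intensity was 421.6 in CD25lo and 323.1 in CD25hi cells of the Foxp3+ pair, whereas the Foxp3- pair gave 96.37 (CD25+) and 46.6 (CD25-). Both Foxp3+ arrays lay above both Foxp3- arrays, and the lower Foxp3+ value exceeded the higher Foxp3- value 3.35-fold. Against CD25- Foxp3- cells the level was 6.93-fold higher in CD25hi Foxp3+, 9.05-fold higher in CD25lo Foxp3+ and 2.07-fold higher in CD25+ Foxp3- cells. The Foxp3+ arrays lay within 1.31-fold of each other, less than the 2-fold used as the rule for a difference. Gzmb was the only measured member with this order of levels at a gap of 1.5-fold or more. In such bulk samples, fewer cells that express a gene and less RNA per cell cannot be told apart.

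Gzma encodes granzyme A, a granzyme that cleaves after basic residues, and it was lower in the Foxp3+ pair, unlike Gzmb. The intensity was 60.41 in CD25hi Foxp3+, 97.61 in CD25lo Foxp3+, 168.5 in CD25+ Foxp3- cells and 347.9 in the CD25- Foxp3- array. Both Foxp3+ arrays lay below both Foxp3- arrays, with 1.73-fold between the nearest pair. Compared with CD25- Foxp3- cells, Gzma was 5.76-fold lower in CD25hi Foxp3+, 3.57-fold lower in CD25lo Foxp3+ and 2.07-fold lower in CD25+ Foxp3- cells. Only the top step of its order reached 2-fold. The 1.73-fold step between the Foxp3- and the Foxp3+ pair and the 1.62-fold step within the Foxp3+ pair did not.

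Gzmk encodes granzyme K, which also cleaves after basic residues and is a close relative of granzyme A. It had the widest spread of the 7 genes, with 415.7 in CD25+ Foxp3-, 138.7 in CD25- Foxp3-, 60.55 in CD25lo Foxp3+ and 7.947 in CD25hi Foxp3+ cells. The last value lies under the floor of 10.12, the 40th percentile of all values, so folds against it are lower bounds. CD25+ Foxp3- cells stood 2.997-fold above CD25- Foxp3- cells, 6.87-fold above CD25lo Foxp3+ cells and at least 41.1-fold above CD25hi Foxp3+ cells. CD25- Foxp3- cells stood at least 13.7-fold above CD25hi Foxp3+ and 2.29-fold above CD25lo Foxp3+ cells. Every step in the order of Gzmk exceeded 2-fold. Unlike Gzma, its neighbour on the chromosome, Gzmk was higher in CD25+ Foxp3- than in CD25- Foxp3- cells.

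Prf1 encodes perforin. Its informative probe set read 40.5 in CD25hi Foxp3+, 32.56 in CD25lo Foxp3+ and 49.96 in CD25+ Foxp3- cells, with 176.5 in CD25- Foxp3- cells. Perforin RNA thus stood out in CD25- Foxp3- cells, by 4.36-fold over CD25hi Foxp3+, 5.42-fold over CD25lo Foxp3+ and 3.53-fold over CD25+ Foxp3- cells. The other 3 arrays lay within 1.53-fold of each other and little above the filter intensity. A further Prf1 probe set read 5.173, 5.013, 5.195 and 5.429 in the same order, under the floor in all 4 arrays, so the Prf1 difference rests on 1 probe set. The population highest in Gzmb RNA, CD25lo Foxp3+, was lowest in Prf1 RNA.

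**Figure D1:**
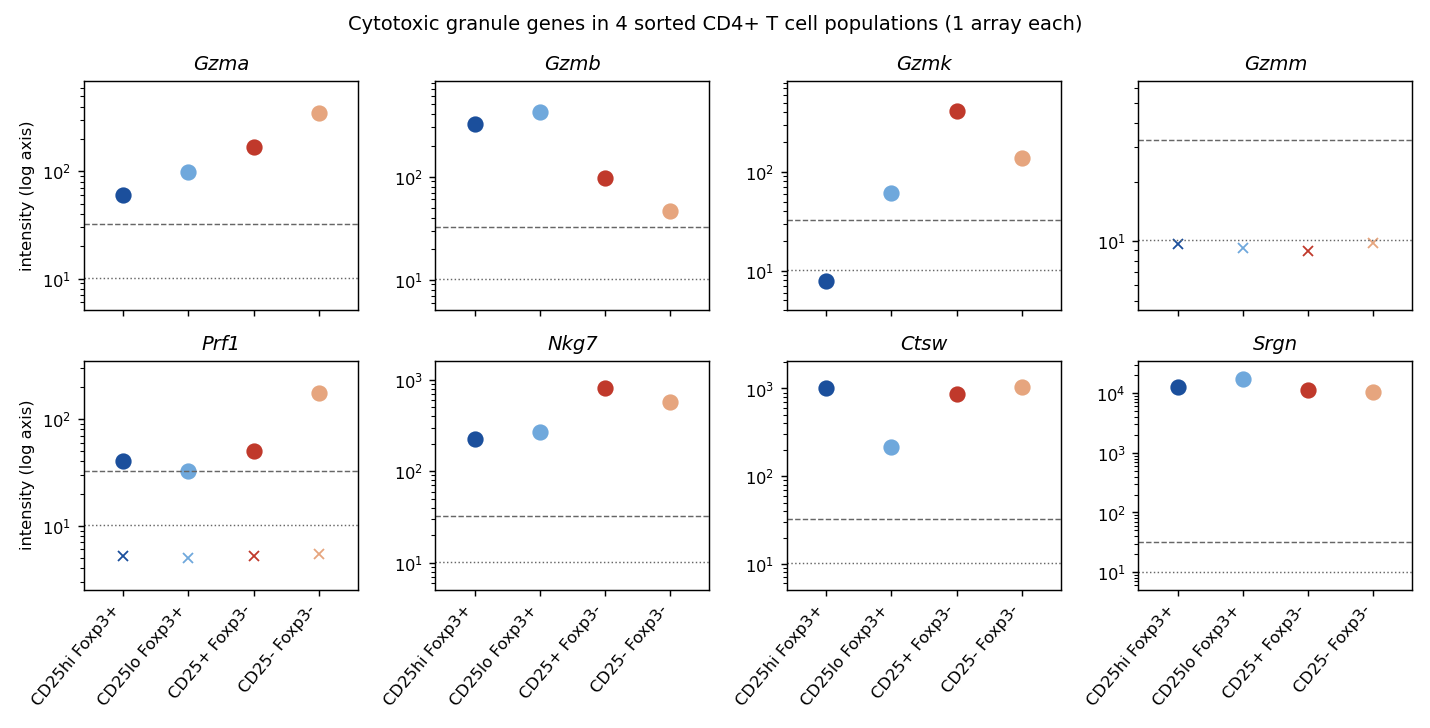
Intensity of each gene (log axis) in the 4 populations, 1 array each, with circles for the probe set used and crosses for probe sets under the filter; the dashed line is the filter intensity of 32.46 and the dotted line the floor of 10.12. Gzmb is high in both Foxp3+ arrays, Gzma, Gzmk and Nkg7 are low in both, Prf1 is high only in CD25- Foxp3- cells, and Ctsw is low only in CD25lo Foxp3+ cells.

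Nkg7 encodes a membrane protein of the lytic granule that takes part in its release. The level was 808.0 (CD25+) and 572.3 (CD25-) in the Foxp3- pair and only 225.5 (CD25hi) and 264.9 (CD25lo) in the Foxp3+ pair. The Foxp3+ arrays lay below the Foxp3- arrays with a gap of 2.16-fold. Within each pair the values were close, 1.17-fold apart in Foxp3+ and 1.41-fold apart in Foxp3- cells, so its 2-fold differences all ran between the Foxp3+ and the Foxp3- pair.

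Ctsw encodes cathepsin W, a cysteine protease made mainly by cytotoxic T and NK cells. It read 1021.9 in CD25hi Foxp3+, 213.4 in CD25lo Foxp3+ and 875.1 in CD25+ Foxp3- cells, with 1040.0 in CD25- Foxp3- cells. The CD25lo Foxp3+ array alone was low, 4.79-fold under CD25hi Foxp3+, 4.10-fold under CD25+ Foxp3- and 4.87-fold under CD25- Foxp3- cells. The other 3 arrays lay within 1.19-fold of each other. Within the Foxp3+ pair, Ctsw was the only measured member past 2-fold in favour of CD25hi, and Gzmk, at least 5.99-fold lower in CD25hi, the only member past it in favour of CD25lo.

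Srgn encodes serglycin, the core protein of the proteoglycan that stores granule proteases, and is expressed widely in blood cells. It read 12711.4 in CD25hi Foxp3+, 17527.5 in CD25lo Foxp3+ and 11380.2 in CD25+ Foxp3- cells, with 10455.5 in CD25- Foxp3- cells. Its highest and lowest arrays were 1.68-fold apart, so no comparison reached 2-fold. Gzmm encodes granzyme M, and its probe set read between 8.957 and 9.776, under the floor in all 4 arrays, so no order can be given.

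Set against all 9625 measured genes, the members were more often lower than higher in Foxp3+ cells. In CD25hi Foxp3+ against CD25- Foxp3- cells, 4 of the 7 measured members (Gzma, Gzmk, Prf1 and Nkg7) were at least 2-fold lower, where 3.74% of all measured genes were, and 1 (Gzmb) was higher, where 7.09% were. Their median log2 difference was -1.34, beside 0.0161 over all genes. In CD25lo Foxp3+ against CD25- Foxp3- cells, 5 of 7 were lower, those 4 and Ctsw, beside 6.88% of all genes, and Gzmb was higher, beside 9.1%. The median was -1.2 for the members and -0.0486 for all genes. These comparisons share the CD25- Foxp3- array. The counts include Gzmk, which passed the filter through the other 3 arrays and not in CD25hi Foxp3+ cells, and leave out Gzmm.

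**Figure D2:**
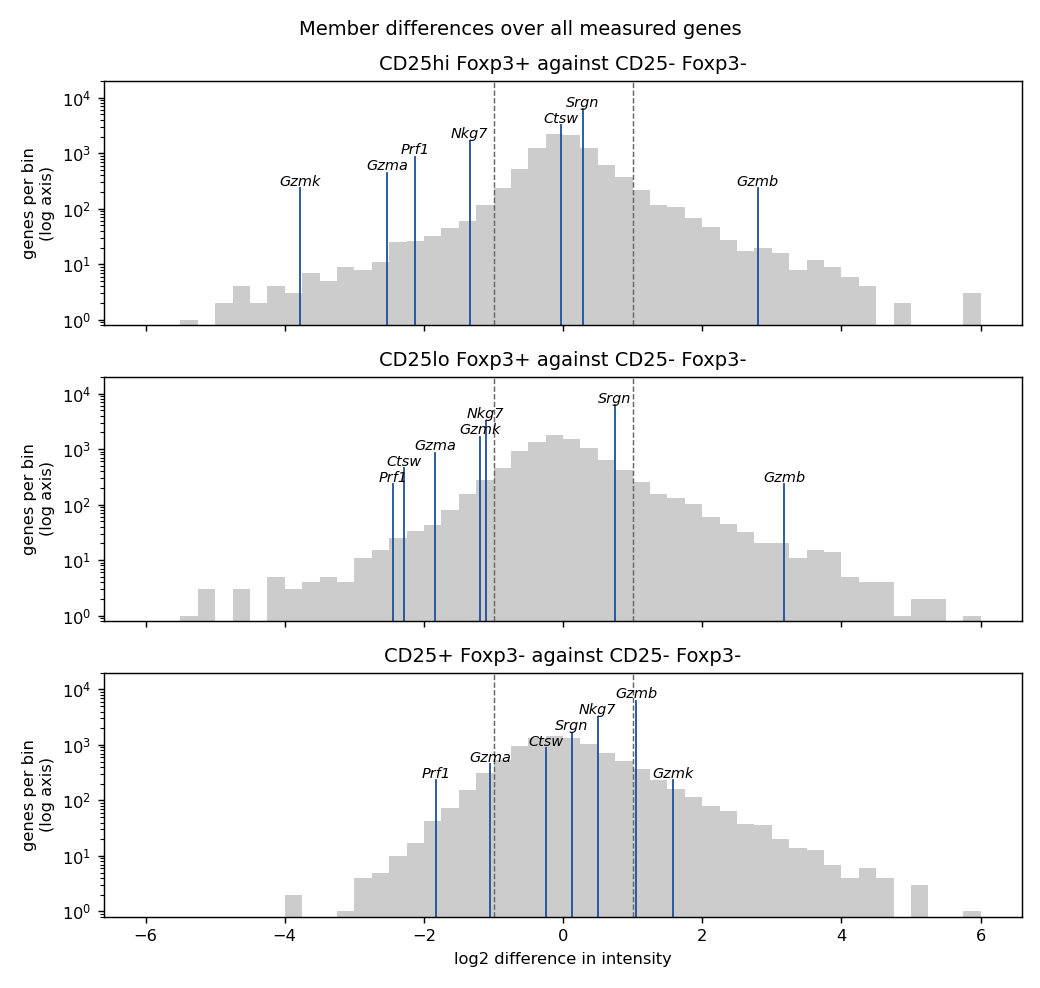
Log2 difference in intensity of all 9625 measured genes against CD25- Foxp3- cells (grey bars, genes per bin on a log axis), with the 7 measured members as blue lines and dashed lines at 2-fold. In the upper panels most members lie left of zero and Gzmb far to the right, and in the lowest panel the members lie on both sides.

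CD25+ Foxp3- cells were mixed for these genes. Against CD25- Foxp3- cells, Gzmk and Gzmb were at least 2-fold higher, 2 of 7 beside 12.1% of all genes, and Gzma and Prf1 lower, 2 of 7 beside 6.43%. The median of the members was 0.122, beside -0.01 over all genes. Gzma, at 2.07-fold, and Gzmb, also at 2.07-fold, passed the rule narrowly.

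When CD25+ Foxp3- cells served as the reference, Gzmb was higher and 3 members were lower in each Foxp3+ population. In CD25hi Foxp3+ cells the lower members were Gzma, Gzmk and Nkg7, beside 6.84% of all genes, and in CD25lo Foxp3+ cells they were Gzmk, Nkg7 and Ctsw, beside 9.04%. The share of all genes that were higher was 4.82% for CD25hi and 5.17% for CD25lo Foxp3+ cells. Both comparisons share the CD25+ Foxp3- array. Gzmb was 3.35-fold higher in CD25hi and 4.38-fold higher in CD25lo Foxp3+ cells, and Nkg7 was 3.58-fold and 3.05-fold lower.

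By a stricter view, in which both Foxp3+ arrays must lie at least 1.5-fold beyond both Foxp3- arrays, 1 of 7 members was higher (Gzmb) and 3 were lower (Gzma, Gzmk and Nkg7). Of all measured genes 2.79% were higher and 1.93% lower by that rule. Arranged by CD25 instead, 0 of 7 members separated the higher-CD25 array of both pairs from the lower-CD25 arrays, beside 1.1% of all genes upward and 0.187% downward. Between CD25hi and CD25lo Foxp3+ cells, 1 of 7 was higher and 1 lower, beside 3.21% and 2.51% of all genes.

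The depletion and the sort were meant to remove CD8 T and NK cells, whose granule genes these are, and their markers moved with part of the results. Of 24 listed markers 14 were measured, and 7 of these were lower in both Foxp3+ arrays by the 1.5-fold rule, namely Cd8a, Cd8b1, Klrk1, Klrd1, Klrc1, Tyrobp and Crtam, and none was higher, beside 1.93% lower and 2.79% higher over all genes. Of the 14, 7 reached the filter in all arrays, and Klrk1, Klrc1, Ncr1 and Fcer1g reached it only in CD25+ Foxp3- cells, so their counts are a description of that array. The summed intensity of all 14 was 755.7 in CD25hi Foxp3+, 1420.3 in CD25lo Foxp3+ and 2762.8 in CD25+ Foxp3- cells, with 2755.7 in CD25- Foxp3- cells. Cd8a, the CD8 alpha chain, read 100.9, 83.66, 184.7 and 350.8 in that order, and Klrd1, the CD94 receptor chain, 31.67, 40.19, 191.9 and 421.7. The NK receptor gene Ncr1 was under or near the floor in 3 arrays, with 7.971, 9.703 and 10.69, and read 36.23 in CD25+ Foxp3- cells. Itga2, which encodes the DX5 antigen, read between 6.428 and 7.307, under the floor in every array. Fcer1g, a signalling adaptor of NK and myeloid cells, read 294.5 in CD25+ Foxp3- cells and between 15.48 and 21.87 in the others. The near-equal sums of the Foxp3- pair thus hide opposite shifts. Against CD25- Foxp3- cells, 5 of the 14 were at least 2-fold higher in CD25+ Foxp3- cells, beside 12.1% of all genes. These were Ncr1, Fcer1g, Cd160, Cd244a and Il18rap, while Klrd1 was lower, beside 6.43%. The part of CD8 T and NK cells in the levels of the members, Gzmb included, was not tested. Ccl5, a chemokine of memory and cytotoxic T cells, gave 746.5 of the 1420.3 in CD25lo Foxp3+ cells. Cd244a, the 2B4 receptor gene, was at least 2-fold higher in that array than in CD25- Foxp3- cells, with 63.05 against 14.15. Its other probe set, under the filter in every array, did not show these Cd244a differences. That probe set read 17.86 and 20.89 in CD25hi and CD25lo Foxp3+ cells and 24.38 and 18.79 in CD25+ and CD25- Foxp3- cells.

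**Figure D3:**
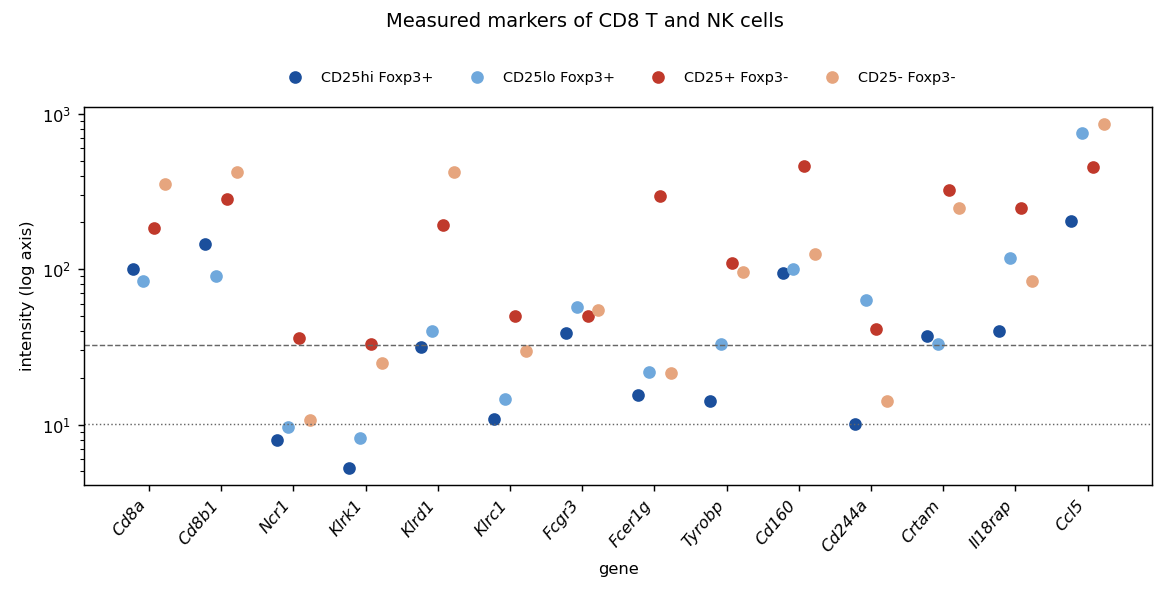
Intensity (log axis) of the 14 measured markers of CD8 T and NK cells in the 4 populations, 1 array each, with the filter (dashed, 32.46) and floor (dotted, 10.12). Cd8a, Cd8b1, Klrd1 and Crtam are higher in both Foxp3- arrays, and Fcer1g, Ncr1 and Cd160 stand out in CD25+ Foxp3- cells.

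The 3 measured of 8 listed markers for gamma delta T or NKT cells, which can also carry granzymes, had their highest values in CD25+ Foxp3- cells. None of the 3 reached the filter in all arrays. Of the other listed markers, Trdc, Tcrg-C1 and Trgc1 had no probe set, and Sox13 stayed under the floor. Zbtb16 and Blk passed it only through CD25+ Foxp3- cells, so for these the high value there is what kept them. The 3 summed to 527.0 there and to 41.88 and 54.87 in CD25hi and CD25lo Foxp3+ cells and 83.19 in CD25- Foxp3- cells. Of the 527.0, 398.6 came from the gene listed as 5830411N06Rik. Zbtb16, the PLZF factor of NKT cells, read 82.15 in CD25+ Foxp3- cells and 4.447, 6.263 and 17.09 in the same others. Its other probe sets stayed under the filter, with 30.87 and 20.18 in CD25+ Foxp3- cells against 7.466 and 11.52 in CD25- Foxp3- cells. Gzmk was also highest in that array, and the part of such cells in its level was not tested.

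The other granzyme genes gave no signal. Gzmc, Gzmd, Gzme, Gzmf, Gzmg and Gzmn, which belong to the same cluster of the mouse genome as Gzmb, all stayed under the filter in every array, so 0 of 6 were measured. The highest value among them was 14.85, for Gzmc in CD25lo Foxp3+ cells, where Gzmb was also highest.

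Of the genes that process granzymes or build the granule, 7 of 11 measured were within 2-fold of CD25- Foxp3- cells in the CD25hi Foxp3+ array. The other genes were Cst7, Ctsl and Igf2r, which exceeded CD25- Foxp3- cells by 2-fold or more there, beside 7.09% of all genes, and Ctsh, which was lower, beside 3.74%. The median log2 difference was 0.349 beside 0.0161 over all genes. Another Igf2r probe set stayed under 2-fold, with 491.2 against 256.8. Cst7 encodes cystatin F, an inhibitor of the cathepsins that activate granzymes, and read 1432.7 and 1867.2 in CD25hi and CD25lo Foxp3+ cells and 916.1 in CD25+ Foxp3- cells, with 395.4 in CD25- Foxp3- cells. Its order matched that of Gzmb. Ctsc, the protease that removes the propeptide of granzymes, lay between 3079.1 and 3355.9 in all 4 arrays. Ctsh, a cathepsin that can also process granzyme B, read 17.49, 28.81, 32.59 and 74.33, low in all arrays and lowest in Foxp3+ cells. Ctsh passed the filter only through the Foxp3- arrays, so counting it as lower in either Foxp3+ array is a description only. In CD25lo Foxp3+ cells 2 of 11 were higher, Cst7 and Lamp2, beside 9.1% of all genes, and Ctsh was lower, beside 6.88%. By the probe sets used, Lamp2 there and Ctsl in the CD25hi array passed the rule narrowly. The other Lamp2 probe sets differed by more, with 2428.8, 445.6 and 195.4 in CD25lo Foxp3+ cells against 800.5, 163.3 and 58.51 in CD25- Foxp3- cells. Ctsb was within 2-fold by the probe set used. In the same 2 arrays other Ctsb probe sets passed it, with 1384.3 against 482.7 and 195.1 against 87.61. Others did not, with 107.7 against 73.51 and 61.62 against 43.32.

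Among 17 measured genes of granule transport and exocytosis, 4 were at least 2-fold higher in each Foxp3+ population than in CD25- Foxp3- cells, namely Stx11, Sytl1, Sytl2 and Snap23, beside 7.09% of all genes for CD25hi and 9.1% for CD25lo. Lyst, the gene of the Chédiak-Higashi granule disorder, was lower in CD25hi Foxp3+ cells, beside 3.74% of all genes, and none was lower in CD25lo Foxp3+ cells, beside 6.88%. Another kept probe set of Lyst did not show that difference, with 31.35 in the CD25hi Foxp3+ array and 32.69 in the CD25- Foxp3- array. The Snap23 probe set used was highest in the CD25+ Foxp3- array, at 534.7. It read 347.3 (CD25hi) and 405.7 (CD25lo) within the Foxp3+ pair, with 143.3 for CD25- Foxp3-. Of the other Snap23 probe sets, 1 read 154.0 and 195.2 in the Foxp3+ pair against 86.56 in CD25- Foxp3- cells, under 2-fold for CD25hi. That probe set read 158.0 in the CD25+ Foxp3- array. The remaining probe set read between 99.56 and 133.1 in all arrays. The median log2 differences from CD25- Foxp3- cells were 0.107 for CD25hi and 0.433 for CD25lo, beside 0.0161 and -0.0486 over all genes. Sytl2, a synaptotagmin-like partner of Rab27a, read 1021.9 and 1655.8 in Foxp3+ cells against 245.0 and 260.1. Sytl1, of the same family, read 281.1 and 290.2 against 74.65 and 114.4. Stx11, a syntaxin needed for granule fusion, read 771.4 in CD25hi Foxp3+, 1545.4 in CD25lo Foxp3+ and 824.2 in CD25+ Foxp3- cells, with 171.2 in CD25- Foxp3- cells, and its other probe set also had the lowest value in CD25- Foxp3- cells, at 23.62 against 135.1 to 375.3. Rab27a, Unc13d and Stxbp2, which dock and prime the granule, did not reach 2-fold in any comparison with CD25- Foxp3- cells. Rab27a missed the rule narrowly in CD25lo Foxp3+ cells, with 1336.0 against 677.9.

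Intracellular serpins that inhibit granule proteases were measured for 4 of 6 listed genes. Serpinb9, the granzyme B inhibitor, lay between 178.4 and 209.3 in all arrays and did not follow Gzmb. Serpinb6b was at least 2-fold higher in CD25lo Foxp3+ and in CD25+ Foxp3- cells than in CD25- Foxp3- cells, reading 286.0, 301.2, 366.9 and 145.6. Serpinb1a read 250.8 in CD25+ Foxp3- cells and 20.23, 48.51 and 30.48 in CD25hi Foxp3+, CD25lo Foxp3+ and CD25- Foxp3- cells.

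Of the other killing ligands and effector cytokines, Fasl went with Gzma, Gzmk and Nkg7. Fasl, the death ligand for Fas, gave 53.79 and 77.46 within the Foxp3+ pair and 513.9 and 461.2 within the Foxp3- pair. Its other kept probe set was also lower in both Foxp3+ arrays, with 14.47 (CD25hi) and 17.84 (CD25lo). In the Foxp3- pair that probe set read 118.7 (CD25+) and 37.89 (CD25-), further apart than by the probe set used. Tnfsf10, which encodes TRAIL, read 219.1 and 221.7 against 149.3 and 80.53, at least 2-fold above CD25- Foxp3- cells in both Foxp3+ arrays. Ifng was highest in CD25+ Foxp3- cells, as Gzmk was, with 1146.3 against 139.6, 366.2 and 288.5. In CD25hi Foxp3+ against CD25- Foxp3- cells 2 of the 6 genes were higher, Tnfsf10 and Lta, beside 7.09% of all genes, and 2 lower, Fasl and Ifng, beside 3.74%.

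The transcription factors known from cytotoxic lymphocytes were divided as well. Eomes, the T-box factor of memory CD8 T and NK cells, read 50.01 in CD25hi Foxp3+, 35.83 in CD25lo Foxp3+ and 411.3 in CD25+ Foxp3- cells, with 105.9 in CD25- Foxp3- cells. Tbx21, which encodes T-bet, read 20.52, 67.58, 227.3 and 20.22. Prdm1, which encodes Blimp-1, read 280.2 and 627.3 in the Foxp3+ pair, compared with 74.67 and 41.22, the same order as Gzmb. Id2 read 970.4 and 1588.6 against 9203.1 and 2858.3, the same order of populations as Gzmk and Nkg7. Its other kept probe sets differed on that order, 1 reading 904.2 in CD25+ and 366.5 in CD25- cells of the Foxp3- pair and 1 reading 60.03 and 69.85. Within the Foxp3- pair, 5 of 9 measured factors (Tbx21, Eomes, Id2, Zeb2 and Bhlhe40) were higher in the CD25+ array by 2-fold or more, beside 12.1% of all genes, with a median log2 difference of 1.35 beside -0.01. Zeb2 passed the filter only through that array, with 45.43 against 17.82 in the CD25- array. In CD25hi Foxp3+ cells 3 were higher, Prdm1, Hopx and Bhlhe40, beside 7.09% of all genes, and 3 lower, Eomes, Runx3 and Id2, beside 3.74%.

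**Figure D4:**
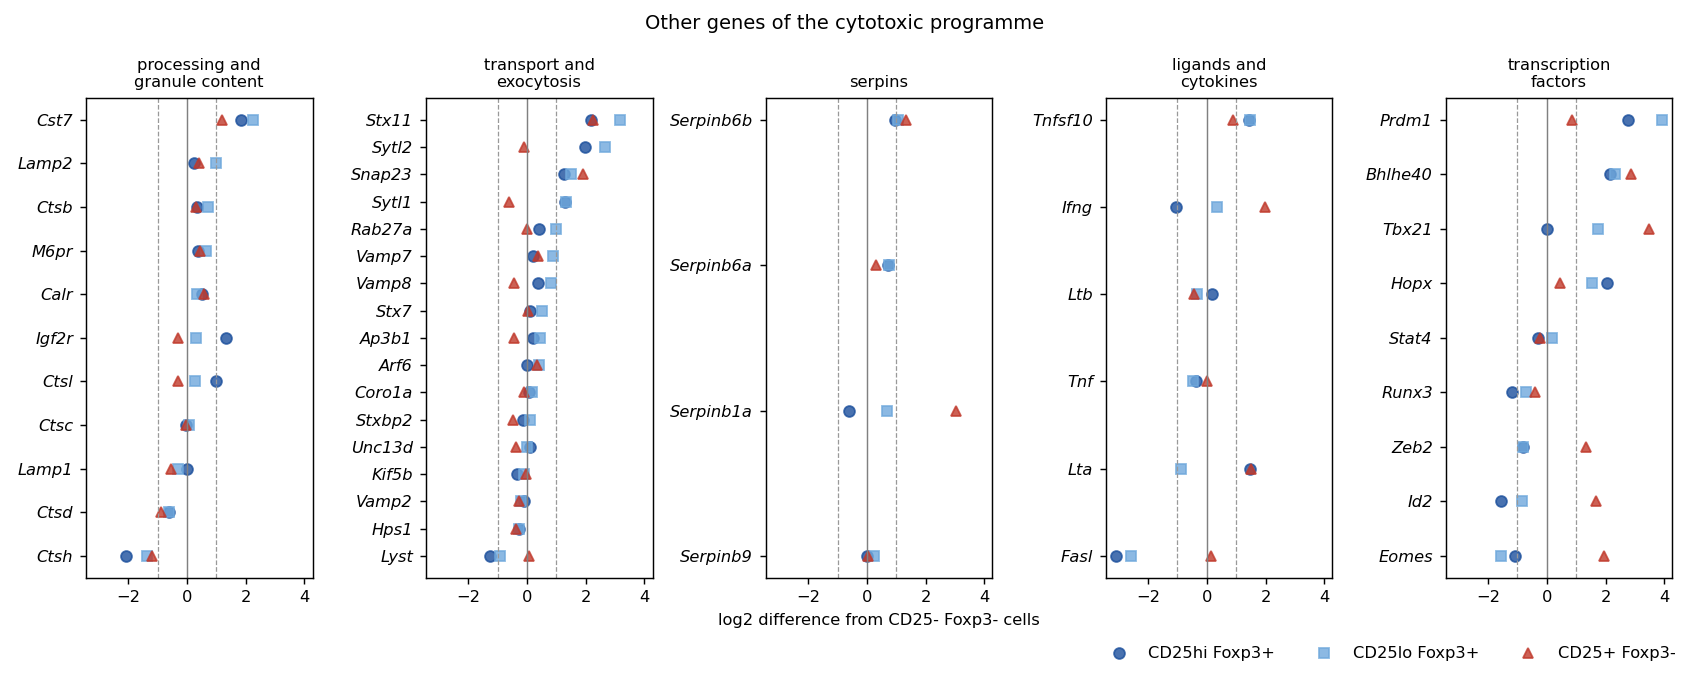
Log2 difference from CD25- Foxp3- cells for the measured genes of 5 lists, 1 array for each population, with dashed lines at 2-fold. Cst7, Stx11, Sytl2, Sytl1 and Prdm1 are to the right in both Foxp3+ populations, Fasl and Eomes to the left, and Serpinb1a, Ifng, Tbx21, Id2 and Eomes are to the right in CD25+ Foxp3- cells.

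The genes whose profile lay nearest to each member, by the root mean square difference of centred log2 values over the 4 arrays, differed from member to member. Nearest to Gzmb was Tnfrsf1b, the second TNF receptor, at 0.0802, with 2050.5 and 2288.8 in the Foxp3+ arrays against 575.0 and 274.2, followed by Lclat1 and Prune2. For Nkg7 it was Klrk1, the NKG2D receptor gene, at 0.0883, although Klrk1 read under the floor in both Foxp3+ arrays and 33.03 and 24.82 in the others. The gene nearest to Gzma was Ly86, at 0.144, which is known from B cells and read 18.78 to 82.45. For Gzmk the nearest were Pou2af1, at 0.35, a coactivator of B cells, and then H2-Aa and H2-Ab1 of MHC class II, at 0.559 and 0.665. Prf1 lay nearest to Xkrx, at 0.0984, Ctsw to Fntb, at 0.161, and Srgn to Sec23a, at 0.0343. With 4 arrays many genes share an order, and these distances describe these arrays only.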

How the data were processed

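The deposited values are 1 intensity for each of 45101 probe sets in each of 4 arrays, per the labels' protocols from Affymetrix Mouse Genome 430 2.0 arrays after 2 cycles of in vitro amplification. The values themselves show a linear scale. The authors' probe summary, background correction and normalization are not given in the sources used here. Medians of the arrays lay within 10% of each other, so the deposited scale was kept.

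Samples were grouped by their titles. With 64 controls left out, 34945 probe sets had 1 gene, of which 34741 matched RefSeq (GRCm38.p6) by Entrez identifier with 0 symbols changed. A further 932 had several genes, and 9160 were not listed. A floor was set at the 40th percentile (10.12). Probe sets reaching the 60th percentile (32.46) in any array were retained, and the retained probe set of largest mean log2 intensity stood for its gene, giving 9625 genes.

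A gene counted as different at 2-fold between 2 arrays, or at a 1.5-fold gap between pairs of arrays. The depth of signal is limited by the number of arrays. The text names all 8 members, list genes past 2-fold (up to 6 for a list in each comparison) and cell type markers without that limit. It also names genes with the nearest profiles, where 322 clone or locus symbols were left out. Some list genes within 2-fold or given for their levels were chosen after their values were seen. The members and the 13 lists were chosen with earlier results of these data known. No gene is on more than 1 list. The code for the size rules was run on simulated data with a noise level set by hand, since the arrays give no replicate spread. That run does not measure the error of the rules in these data. Python 3.11.15, pandas 2.3.3 and matplotlib 3.10.9 were used. Alternatives covered scaling, floor, filter, probe set, pseudocount and size rule.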

Additional observations from a re-analysis of the deposited data

Results flagged for a closer look

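Gzmk is the only measured member whose difference by CD25 ran in opposite directions in Foxp3+ and Foxp3- cells by at least 1.5-fold in each. In Foxp3+ cells the log2 difference of CD25hi minus CD25lo was -2.58, with the CD25hi value of 7.947 set to the floor of 10.12, against 60.55 in CD25lo. In Foxp3- cells the log2 difference of CD25+ minus CD25- was 1.58, with 415.7 against 138.7. The difference between these differences was not tested, because each is 1 array against 1 array. The 3 measured markers for gamma delta T or NKT cells, of which Zbtb16 and Blk passed the filter only through this array, were also highest in CD25+ Foxp3- cells, with a summed intensity of 527.0 against 83.19 in CD25- Foxp3- cells, and their part in the Gzmk level was not tested.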

How the results depend on the processing

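Each of 16 counts of members was recomputed under 9 alternatives, and 139 of the 144 values stayed within 1.5 times of the reported count. Dropping the filter, raising it to the 70th percentile and averaging probe sets left every member value unchanged. Each measured member has only 1 kept probe set, so these alternatives were no check on the counts or on the single differences. For CD25+ against CD25- Foxp3- cells, a pseudocount of 32 without a floor left 1 member higher (Gzmk) and 1 lower (Prf1), where Gzmb and Gzma were both reported at 2.07-fold. At 3-fold the counts there were 0 higher and 1 lower, and for CD25lo Foxp3+ against CD25- Foxp3- cells 3 lower (Ctsw, Gzma and Prf1). The pseudocount also took Gzmk under 2-fold in CD25lo Foxp3+ against CD25- Foxp3- cells, at -0.88. The stricter size rule also ended the calls of Nkg7 in CD25hi Foxp3+ against CD25- Foxp3- cells and of Gzma against CD25+ Foxp3- cells and in both Foxp3+ arrays. Of 336 recomputed log2 differences of single members, 0 changed direction among those past 2-fold, and 10 moved by over 1.5-fold, all of Gzmb, Gzmk or Prf1 under the pseudocount or the higher floor. Gzmk in CD25hi Foxp3+ against CD25+ Foxp3- cells was -3.49 with the pseudocount and -5.36 as reported. No paired analysis was possible because each population has 1 array. Signal limits Gzmm, which stayed under the floor, and Prf1, read from 1 probe set.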

Other observations

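Of 8 listed markers of mast cells and basophils, only Cpa3, the mast cell carboxypeptidase, was measured, through the CD25- Foxp3- array alone, with 56.02 in CD25- Foxp3- cells, 15.79 in CD25+ Foxp3- cells and 7.402 and 15.55 in the CD25hi and CD25lo arrays of the Foxp3+ pair. The 6 measured of 12 myeloid markers summed to 184.6 and 436.4 in CD25hi and CD25lo Foxp3+ cells and to 402.0 and 727.0 in CD25+ and CD25- Foxp3- cells. Csf1r gave 57.83, 212.1, 146.8 and 305.2 of these, while its other kept probe sets spanned 35.78 to 70.75 and 28.25 to 45.31. Against CD25- Foxp3- cells, Lyz2, Csf1r and S100a8 were at least 2-fold lower in CD25+ Foxp3- cells, beside 6.43% of all genes. Adgre1, kept only through the CD25+ Foxp3- array, was higher, with 45.45 against 21.09, beside 12.1%. Of 12 B cell markers 7 were measured. By the 1.5-fold rule 5 of these were lower in both Foxp3+ arrays, beside 1.93% of all genes, and Fcmr was higher, beside 2.79%. The 5 were Ms4a1, Ly86, H2-Aa, H2-Ab1 and H2-Eb1, of which Ms4a1 and Ly86 reached the filter only in the Foxp3- arrays. Within the Foxp3- pair the markers did not move together. The MHC class II genes were highest in CD25+ Foxp3- cells, H2-Aa with 1876.7 against 1097.6 in CD25- Foxp3- cells, whereas Ms4a1, which encodes CD20, read 66.66 and 144.8 and Ly86 read 48.99 and 82.45 in these arrays. Fcmr was higher in the Foxp3+ pair, with 199.2 and 478.9 against 40.27 and 64.96. Cd79b, the remaining measured marker, was also higher there, with 97.17 and 117.7 against 58.38 and 69.23, but short of the 1.5-fold rule. Cd79a, Pax5, Blnk and Cr2 stayed under the filter in every array. The part of B cells in the levels of the members was not tested.

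Within the Foxp3+ pair, 4 of the 14 measured CD8 T and NK cell markers were at least 2-fold lower in CD25hi, beside 2.51% of all genes, and 0 were higher, beside 3.21%. The lower markers were Ccl5, with 203.7 in CD25hi and 746.5 in CD25lo, Il18rap, with 40.22 and 118.5, Cd244a, with 10.03 and 63.05, and Tyrobp, with 14.08 and 32.77. The other 10 were within 2-fold, and Cd8a, Cd8b1 and Crtam read somewhat higher in CD25hi, with 144.5 against 90.81 for Cd8b1. The CD25hi value of Cd244a lies under the floor of 10.12, and its other probe set, under the filter, read 17.86 and 20.89.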
